A study of Schizosaccharomyces pombe with 6 samples.

Results

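The pheromone and mating genes described here are 7 genes of the fission yeast Schizosaccharomyces pombe, mfm1, mfm3, mam2, mam3, rgs1, spk1 and mei2, read by 8 probe sets of 9133 on the array, or of 8960 that are not controls. They were selected on measured values: each is listed by symbol in at least 1 of the 3 tables of differences that the authors made from these same arrays, so what follows on the contrasts between groups is description and no test of the genes is drawn from it. The authors' tables had been filtered on raw signal, which limited the probe sets that could be listed. No filter was applied to the value table, in which all 8 probe sets have a value on every array. Not every probe set on the array is of S. pombe: in the largest of the authors' tables, 35 of 132 carry an S. pombe identifier. Shares, medians and percentiles given below over all probe sets are therefore not confined to S. pombe genes. The 3 groups were cells overexpressing Spc1K49R, cells overexpressing Spc1, and cells carrying the empty vector, with 2 arrays per group that the labels call biological replicates. The vector's promoter, the strain's mating type, the medium and the growth stage are not given in the sources used here.

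Fission yeast cells come in the mating types M and P. M cells secrete M-factor, a short lipid-modified peptide, and carry the receptor for P-factor, the pheromone of P cells. Pheromone binding passes through a heterotrimeric G protein, Ras1 and a MAP kinase cascade that ends in Spk1, and the HMG-box factor Ste11 switches on most genes of this programme when nitrogen runs out. Spc1, also named Sty1, is the stress MAP kinase, and it is needed for the normal induction of ste11. The name Spc1K49R gives arginine in place of lysine at residue 49.

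Each value is a log2 signal from which the probe set's own median over the 6 arrays had been taken, so differences between arrays can be read but levels of different genes cannot be compared. Since RNA came from whole cultures, a change in the number of expressing cells and a change in RNA per cell cannot be told apart. The overexpressed gene sty1 had log2 values of 1.20 and -1.37 on the arrays labelled Spc1K49R replicates 1 and 2, of 1.04 and 1.49 with Spc1, and of -1.07 and -1.04 with empty vector. The array labelled Spc1K49R replicate 2 thus goes against its label, and each direction for Spc1K49R below draws on it. Spc1 replicate 1 also stood apart. Its mean 5' minus 3' value over 6 control genes was -1.53, and its SD over all probe sets was 0.82. Empty vector replicate 1 was next in both, at -0.56 and 0.31, where the rest had -0.10 to 0.40 and 0.11 to 0.16. Since each probe set is centred, these 5' minus 3' values compare arrays with each other and do not show which end was brighter. What part RNA quality had in the results was not tested. Values without an array are given where they turn a direction or differ by a large factor. Each SE comes from a fit of all 6 arrays that pools the spread of the 3 groups. For a probe set it is the same in every comparison, and it can reflect a group that is not compared.

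The M-factor precursor gene mfm1 (SPAPB8E5.05) encodes 1 of several similar precursors from which the pheromone is cut. Its first probe set read 0.37 and 0.37 with Spc1K49R, -0.11 and -0.09 with Spc1, and -0.36 and 0.09 with empty vector. The Spc1K49R arrays were the highest of the 6, whereas the Spc1 arrays lay between those of the empty vector. The second probe set of mfm1 read 0.40 and 0.35 with Spc1K49R, -0.29 and -0.08 with Spc1, and -0.36 and 0.08 with empty vector. The array maker's suffix x_at on this probe set marks probes that may also match other transcripts. The 2 probe sets lay within 0.03 of each other on 5 arrays and differed by 0.18 on Spc1 replicate 1.

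The mean of the first mfm1 probe set was 0.37 ± 0.00 (SD, n = 2) with Spc1K49R and -0.14 ± 0.32 (SD, n = 2) with empty vector, which differ by 0.51 (SE 0.19) on the log2 scale, or 1.42-fold. For the second probe set the difference was 0.52 (SE 0.20). Almost all of the spread lay between the empty-vector arrays, and without empty vector replicate 1 the differences were 0.28 and 0.30. Against Spc1, the Spc1K49R mean was higher by 0.47 (SE 0.19) and 0.56 (SE 0.20), and mfm1 was the 1 member gene that the authors listed for this pair of groups. With each array's 5' minus 3' value in the model these were 0.32 and 0.32. The Spc1 mean differed from that of the empty vector by 0.04 (SE 0.19) and -0.04 (SE 0.20), and with an array left out these ranged from -0.19 to 0.26 and from -0.26 to 0.18.

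The other precursor gene, mfm3 (SPBPJ4664.03), read 0.13 and 0.07 with Spc1K49R, 0.63 and -0.07 with Spc1, and -0.13 and -0.30 with empty vector. Its highest value was thus on Spc1 replicate 1, the array on which both mfm1 probe sets were below 0. The Spc1K49R mean was 0.10 ± 0.04 and the empty-vector mean -0.21 ± 0.12 (SD, n = 2 each), a log2 difference of 0.31 (SE 0.26), or 1.24-fold. Spc1 differed from empty vector by 0.49 (SE 0.26), by 0.14 without Spc1 replicate 1 and by 0.84 without Spc1 replicate 2. Signal may be shared between probe sets of the mfm genes, which are close copies.

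The mam2 gene (SPAC11H11.04) encodes the receptor by which M cells sense P-factor. It read 0.42 and 0.00 with Spc1K49R, 0.57 and 0.00 with Spc1, and -0.26 and -0.43 with empty vector. Both empty-vector arrays were the lowest of the 6, and in each overexpressing group replicate 1 was well above replicate 2. The log2 difference from empty vector was 0.56 (SE 0.26) for Spc1K49R, or 1.47-fold, and 0.63 (SE 0.26) for Spc1, or 1.55-fold. It was 0.35 for Spc1K49R without its replicate 1, and 0.34 for Spc1 without its replicate 1.

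The regulator gene rgs1 (SPAC22F3.12c) encodes a GTPase-activating protein that damps pheromone signalling at the G protein. It read 0.37 and 0.16 with Spc1K49R, -0.67 and 0.20 with Spc1, and -0.16 and -0.25 with empty vector. Spc1 replicate 1 was the lowest array and Spc1 replicate 2 lay between the Spc1K49R arrays. The mean was 0.27 ± 0.15 with Spc1K49R and -0.20 ± 0.06 with empty vector (SD, n = 2 each), 0.47 (SE 0.31) apart on the log2 scale. This pooled SE also draws on the Spc1 arrays, which were 0.87 apart. For Spc1 against empty vector the difference was -0.03 (SE 0.31), but 0.41 without Spc1 replicate 1 and -0.46 without Spc1 replicate 2.

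The gene spk1 (SPAC31G5.09c) encodes the MAP kinase at the end of the pheromone cascade. It read 0.30 and 0.10 with Spc1K49R, -0.21 and 0.15 with Spc1, and -0.10 and -0.11 with empty vector. As for rgs1, the Spc1 arrays lay on either side of those of the empty vector, with replicate 1 the lowest of all. The log2 difference was 0.31 (SE 0.18) for Spc1K49R and 0.07 (SE 0.18) for Spc1, the second being 0.26 without Spc1 replicate 1 and -0.11 without Spc1 replicate 2.

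The mam3 gene (SPAP11E10.02c) encodes the agglutinin of M cells, a cell-surface protein by which mating partners stick together. It read -0.01 and 0.01 with Spc1K49R, 0.47 and 0.18 with Spc1, and -0.27 and -0.26 with empty vector. The 3 groups did not overlap, with Spc1 the highest and empty vector the lowest. The means were 0.32 ± 0.20 with Spc1 and -0.26 ± 0.01 with empty vector (SD, n = 2 each), a log2 difference of 0.59 (SE 0.16), or 1.50-fold, and 0.44 without Spc1 replicate 1. For Spc1K49R the difference was 0.26 (SE 0.16), or 1.20-fold, and ranged from 0.25 to 0.27 when any array was left out. Spc1K49R lay below Spc1 by a log2 difference of -0.32 (SE 0.16), or -0.18 without Spc1 replicate 1.

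The gene mei2 (SPAC27D7.03c) encodes the RNA-binding protein that starts meiosis once the kinase Pat1 no longer holds it in check. It read 0.15 and 0.12 with Spc1K49R, -0.12 and 0.19 with Spc1, and -0.58 and -0.19 with empty vector. Empty vector replicate 1 was the lowest array, and every overexpressing array was above both empty-vector ones. The log2 difference was 0.52 (SE 0.20) for Spc1K49R, or 1.43-fold, and 0.42 (SE 0.20) for Spc1, or 1.34-fold. Without empty vector replicate 1 they were 0.32 and 0.22, and without Spc1 replicate 2 that of Spc1 was 0.26.

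**Figure D1:**
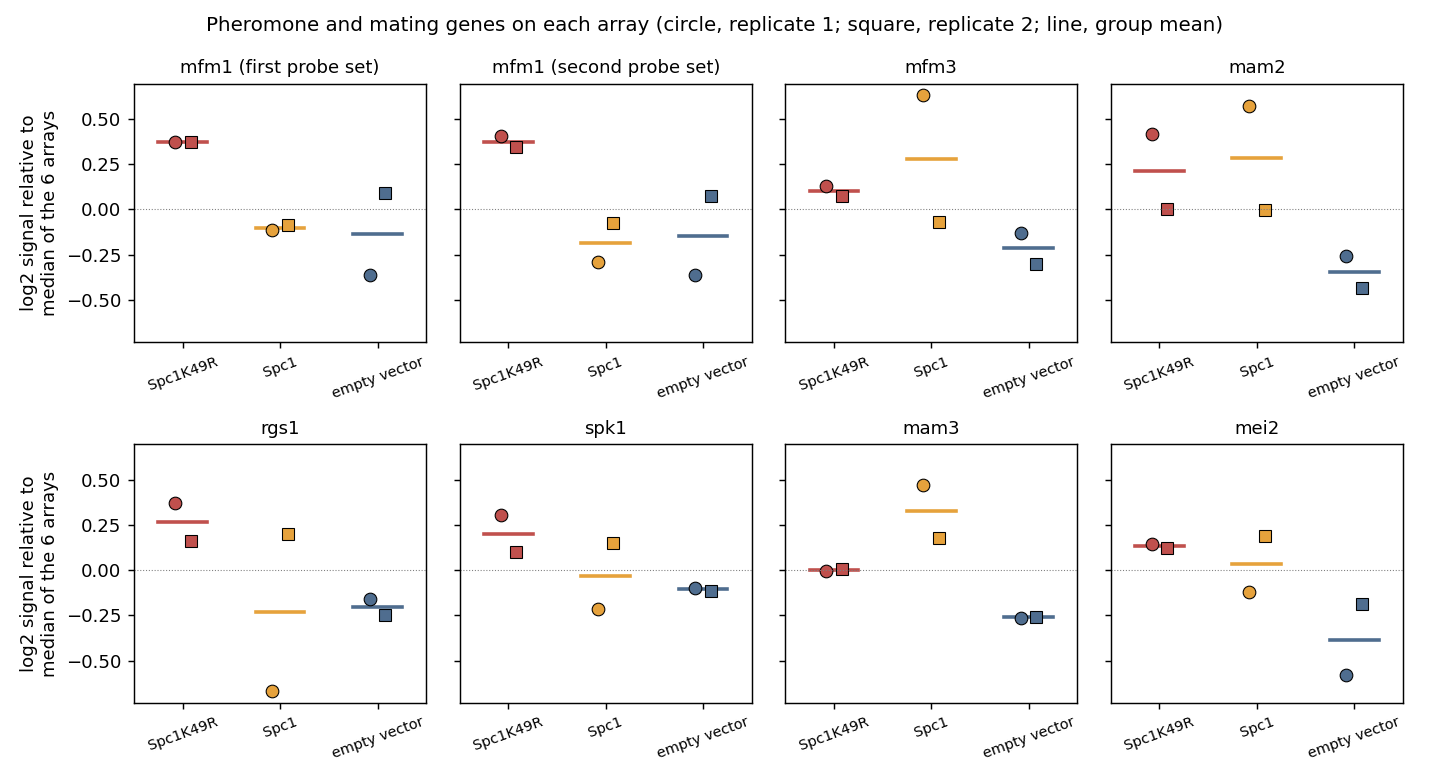
Log2 signal minus the median over the 6 arrays (vertical axis) for each of the 8 probe sets, with circles for replicate 1, squares for replicate 2 and lines for group means of Spc1K49R, Spc1 and empty vector. The Spc1K49R points lie above the empty-vector points in each panel, from -0.01 for mam3 to 0.42 for mam2, while the Spc1 points are the widest apart for rgs1, at -0.67 and 0.20.

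Set side by side, in all 8 probe sets the lower Spc1K49R array exceeded the higher empty-vector array, and in 0 the order was the opposite, where over all 8960 probe sets 12.0% were above and 11.7% below. Since the authors listed these 8 as higher in this very comparison, nothing is read from that count. For Spc1 against empty vector 4 probe sets, those of mfm3, mam2, mam3 and mei2, had both Spc1 arrays above, 0 had them below and 4 overlapped, against 10.5% above and 14.4% below over all probe sets. For Spc1K49R against Spc1, both mfm1 probe sets lay above, mam3 lay below and 5 probe sets overlapped, with 21.6% above and 14.5% below over all probe sets. The comparisons share arrays, so their counts are not independent of each other.

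The median log2 difference over the 8 probe sets was 0.49 for Spc1K49R against empty vector, where that over all probe sets was 0.00, and the members ran from 0.26 to 0.56. They stood between the 96.0 and 99.8 percentiles of all differences in that comparison. For Spc1 against empty vector the median was 0.25, beside -0.05 over all probe sets, and the members ran from -0.04 to 0.63. Their percentiles spread from 52.1 for the second mfm1 probe set to 98.4 for mam2. For Spc1K49R against Spc1 the median was 0.17, beside 0.05 over all probe sets, and the range was -0.32 for mam3 to 0.56 for the second mfm1 probe set.

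Set directly against Spc1, Spc1K49R differed by less than the SE for mfm3 at -0.18 (SE 0.26), mam2 at -0.08 (SE 0.26) and mei2 at 0.10 (SE 0.20), and by 0.50 (SE 0.31) for rgs1 and 0.23 (SE 0.18) for spk1. For rgs1 and spk1 the differences were 0.07 and 0.05 without Spc1 replicate 1, and 0.93 and 0.41 without Spc1 replicate 2. With an array left out mfm3 ranged from -0.53 to 0.17, mam2 from -0.36 to 0.21 and mei2 from -0.05 to 0.26, and mam2 was at 0.13 without the array labelled Spc1K49R replicate 2. For Spc1 against empty vector, the differences with each array's 5' minus 3' value in the model were 0.15 and 0.13 for mfm1, 0.21 for mfm3, 0.36 for mam2, 0.24 for rgs1, 0.18 for spk1, 0.49 for mam3 and 0.61 for mei2.

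**Figure D2:**
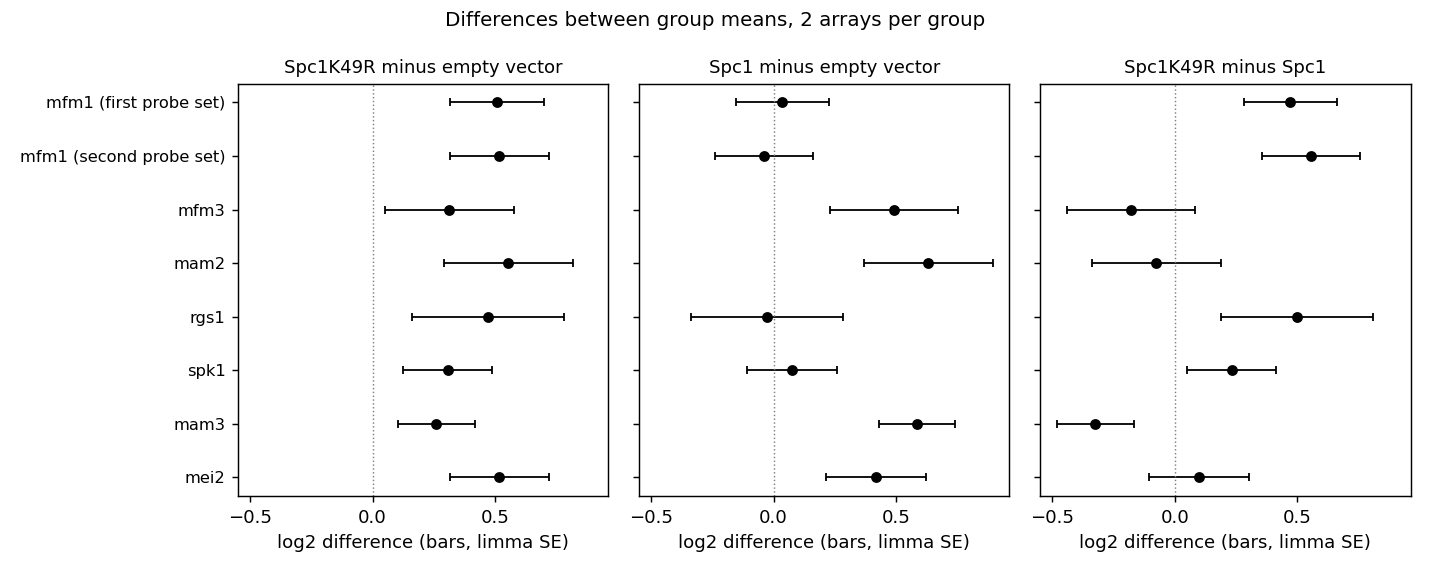
Log2 difference between group means (horizontal axis, with limma standard errors as bars) for each probe set in the 3 comparisons, 2 arrays per group. All 8 points are to the right of 0 for Spc1K49R against empty vector, from 0.26 to 0.56, whereas for Spc1 the points of mfm1, rgs1 and spk1 lie at or near 0, between -0.04 and 0.07.

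**Figure D3:**
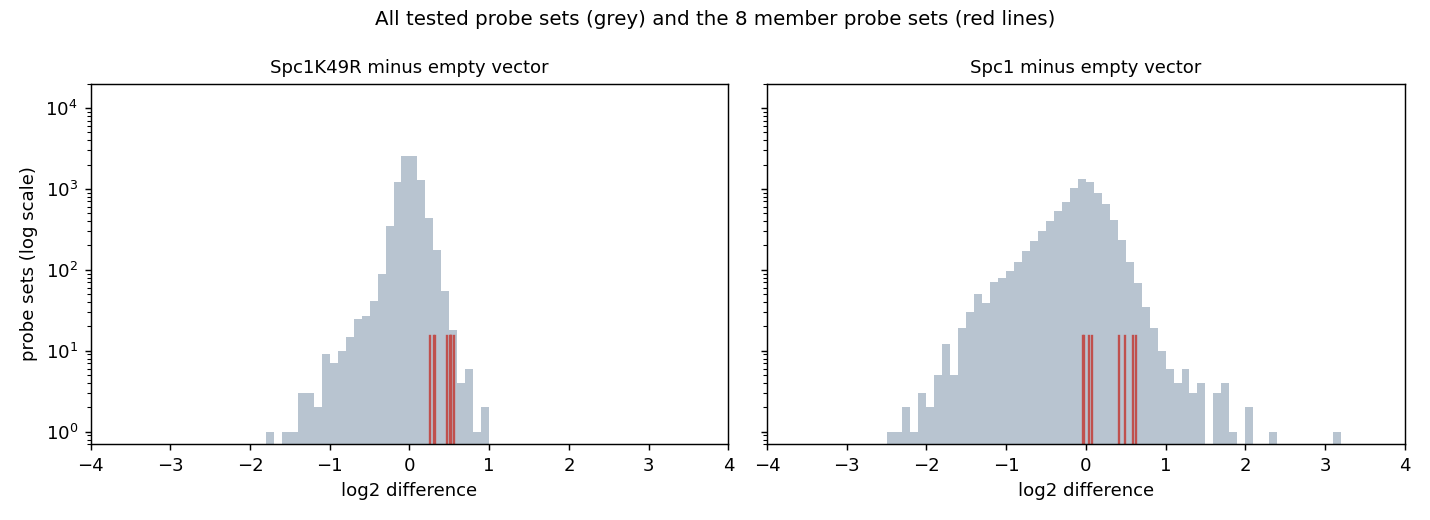
Number of probe sets (vertical axis, log scale) by log2 difference (horizontal axis) over all 8960 tested probe sets, with red lines at the 8 member probe sets, for Spc1K49R and for Spc1 against empty vector. The Spc1 distribution is the wider one, with the central 90% between -0.87 and 0.42 against -0.23 and 0.24 for Spc1K49R.

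With limma fitted to all 6 arrays, 0 of the 8 probe sets passed a Benjamini-Hochberg adjusted p of 0.05 in any of the 3 comparisons, and over all 8960 probe sets 0% passed in each. At an unadjusted p under 0.05 the members numbered 2 for Spc1K49R against empty vector (both of mfm1), 1 for Spc1 against empty vector (mam3) and 1 for Spc1K49R against Spc1 (the second of mfm1). Over all probe sets the shares were 0.0893%, 1.21% and 1.02%, which were 8, 108 and 91 probe sets. The authors had listed these same members for the matched comparisons, at an unadjusted p under 0.05 on the same arrays. Nothing is therefore read from the members' counts. The members' count for Spc1K49R against empty vector depended on the arrays in the fit: it was 8 with only the 2 groups compared, where 92 of all probe sets passed. Dropping the Spc1 arrays leaves this difference as it was and changes only the standard error. That fit repeats the authors' matched comparison, whose unadjusted p under 0.05 listed these 8, so nothing is read from its count. With an array left out the members' counts moved both up and down in each of the 3 comparisons. Such a fit leaves 1 array in a group, so those counts are not read here. An exact permutation test of 2 arrays against 2 cannot go below a two-sided p of 0.333, so none is given for single genes.

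Gaps between replicates differed by group, in the same order for these genes as over all probe sets. Listing by a p-value for Spc1K49R against empty vector favours small gaps in those groups, so the members' gaps are description only. The median absolute gap between replicates over the 8 probe sets was 0.06 with Spc1K49R, 0.34 with Spc1 and 0.18 with empty vector, beside 0.09, 0.42 and 0.17 over all probe sets. The widest single gaps were 0.87 for rgs1 and 0.70 for mfm3 between the Spc1 arrays, and 0.45 for mfm1 between the empty-vector arrays. With Spc1K49R the widest was 0.42, for mam2. For mfm1 the gap between the Spc1K49R arrays was 0.00 on the first probe set and 0.06 on the second, while sty1 read 1.20 and -1.37 on the same arrays.

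Among themselves the 7 genes split on Spc1 replicate 1. There mfm3, mam2 and mam3 were at 0.63, 0.57 and 0.47, whereas rgs1, spk1 and mei2 were at -0.67, -0.21 and -0.12 and mfm1 was at -0.11 and -0.29. Spc1 replicate 2 had an SD over all probe sets of 0.15, near those of the Spc1K49R arrays and empty vector replicate 2. On Spc1 replicate 2 the members ran only from -0.09 to 0.20, and all 7 genes were above their empty-vector mean. On that array the excess over the empty-vector mean was 0.57 for mei2, 0.44 for mam3, 0.41 for rgs1, 0.34 for mam2, 0.26 for spk1, 0.14 for mfm3, and 0.05 and 0.07 for mfm1. The excess on Spc1K49R replicate 1 was 0.53 for mei2, 0.25 for mam3, 0.58 for rgs1, 0.76 for mam2, 0.41 for spk1, 0.34 for mfm3, and 0.51 and 0.55 for mfm1. On Spc1K49R replicate 2, where sty1 was low, it was 0.51 for mei2, 0.27 for mam3, 0.36 for rgs1, 0.35 for mam2, 0.21 for spk1, 0.29 for mfm3, and 0.51 and 0.49 for mfm1. The gene with the widest contrast between Spc1 replicate 2 and both Spc1K49R arrays was thus mfm1.

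Across the 6 arrays, with the mfm1 probe sets averaged, Pearson correlations between the 21 pairs of member genes ran from -0.43 (mfm3 with rgs1) to 0.96 (rgs1 with spk1), with a median of 0.43 and 14 pairs above 0. Without Spc1 replicate 1, on 5 arrays, they ran from 0.36 (mfm1 with mam3) to 0.99 (rgs1 with spk1), with a median of 0.78 and 21 above 0. These are descriptions: the points are 5 or 6 arrays shared by all genes, and the genes were listed for a difference between the same groups of arrays.

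**Figure D4:**
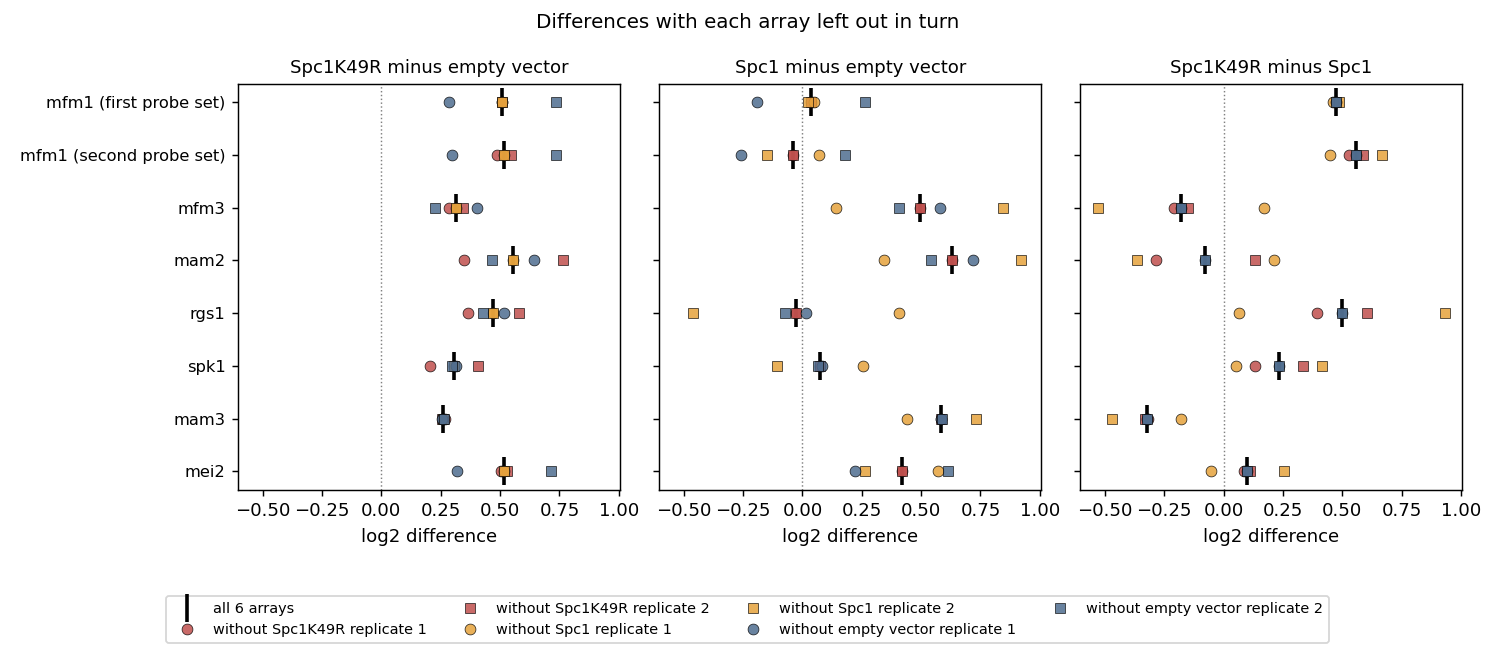
Log2 difference (horizontal axis) of each probe set in the 3 comparisons with all 6 arrays (black bars) and with each array left out in turn (circles, replicate 1; squares, replicate 2; coloured by group). For Spc1K49R against empty vector no point could fall below 0, because both Spc1K49R arrays lay above both empty-vector arrays in all 8 probe sets. Points without an Spc1 array equal the full difference by construction there, and the lowest point is 0.21 for spk1. For Spc1 against empty vector, leaving out Spc1 replicate 1 or 2 puts rgs1 at 0.41 or -0.46.

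In the authors' deposited table of mutant C against wild type, which matches Spc1K49R against empty vector by its fold changes (r = 0.970 across 124 probe sets), the 8 probe sets are among 23 of S. pombe listed as up, and none is among the 12 listed as down. By fold in that table mam2 is the third of the 23, at 1.46, mfm1 the sixth and seventh, mei2 the ninth, rgs1 the tenth, and spk1, mfm3 and mam3 come between 18 and 20. The authors' deposited table gives these unadjusted p-values from 0.0156 for rgs1 to 0.0497 for the first mfm1 probe set, just inside the cut-off of 0.05 that chose them; the values of probe sets just outside it are not used here. The authors' deposited table for mutant B and wild type, matched to Spc1, has mam3 as 1 of 3 S. pombe probe sets listed as up, at 1.55-fold. For mutant B set against mutant C, the authors' deposited table has both mfm1 probe sets among 19 of S. pombe listed as down, at 1.39-fold and 1.40-fold.

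The gene ontology text in the authors' deposited tables gives response to stress for 4 of the 7 genes (mei2, mfm1, mfm3 and rgs1) and for 6 of the 68 other named S. pombe probe sets. Conjugation appears for 6 of the 7, all but mei2, and for 1 of those 68, the shared probe set of matmi_1 and matmi_2. The 7 were grouped as mating genes from the start, so nothing is read from the conjugation counts. Plasma membrane appears for mfm1, mfm3 and rgs1, cell surface for mam3, and nucleus for mei2, rgs1 and spk1.

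A wider mating list of 41 gene names, ordered by role, had 8 with a probe set named in the files, the 7 members and matmi_1. The list's names for the M-factor exporter mam1, the P-factor precursor map2, the M-factor receptor map3, the G-protein subunit gpa1, the kinases byr1 and byr2 and the factor ste11 had none, because probe sets carry names here only through the tables of differences. Of markers of M cells 4 of 8 had a name, and of P cells 0 of 5, so the mating type of the cells could not be checked. The shared probe set of matmi_1 and matmi_2, copies of an M mating-type gene at the mating-type cassettes, read 0.17 and 0.24 with Spc1K49R, -0.17 and -0.25 with Spc1, and 1.88 and -0.52 with empty vector. Its Spc1K49R arrays were above its Spc1 arrays, and the empty-vector arrays spanned all the others. None of these 8 named genes passed the test with limma.

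Among the 64 other probe sets with a single S. pombe gene name, the profile closest to the mean of the 7 genes over the 6 arrays was that of dak2, a dihydroxyacetone kinase gene, with r = 0.77. It was followed by SPAC22H10.06c, a dubious gene, at 0.70, sty1 itself at 0.62, the stress-responsive orphan gene sro1 at 0.53, and SPAC17G6.05c (bro1), a vacuolar protein-sorting gene, at 0.52. The dak2 values were 0.14 and 0.17 with Spc1K49R, -0.14 and 0.29 with Spc1, and -0.25 and -0.16 with empty vector. As for spk1, rgs1, mei2 and both mfm1 probe sets, Spc1 replicate 1 was below replicate 2 and the Spc1K49R arrays were above those of the empty vector. For spk1 and rgs1 Spc1 replicate 1 was the lowest array, whereas for dak2, as for mei2, it lay above both empty-vector arrays. All 64 were themselves listed by the authors for a difference on these arrays.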

How the data were processed

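RNA of 6 S. pombe samples was hybridised to Affymetrix arrays after biotin labelling, per the labels' protocols. The authors deposited log2 values, each probe set having its median over the 6 arrays at 0. No coordinates are printed, because genome build and normalization are not given in the sources used here. Per the file headers, the authors' tables hold fold ratios, their log2 and unadjusted p-values of a moderated test without correction, kept by a filter on raw signal percentiles. Signed fold values, a score deposited by the authors, and 6 columns of group means were not used. Mutant B and mutant C were matched to Spc1 and Spc1K49R by their fold changes alone.

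Differences were fitted with limma 3.58.1 in R 4.3.3, 1 mean for each group and 3 residual degrees of freedom, over 8960 probe sets without 173 controls, two-sided, with Benjamini-Hochberg adjustment. The model was tested on simulated data. The number of arrays limits precision, and p-values measure only the spread between them. The members and gene lists were chosen with earlier results of these data known. Genes named are the 7 members, sty1, named genes of the mating list, and the 5 probe sets with the most similar profile. Alternatives were centring of arrays, robust variances, array weights, a replicate block, fits of 2 groups, a 5' minus 3' covariate, and each array left out. Leaving out 2 arrays together and averaging the mfm1 probe sets were chosen after seeing the data.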

Additional observations from a re-analysis of the deposited data

Results flagged for a closer look

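Poly-A spike-in control probe sets, 39 in number and outside the main measurement, read high in 1 group. The median log2 value over them was 5.23 on the first Spc1 array and 1.34 on the second, while the empty-vector arrays had 0.15 and -1.13. Whether this has a part in the Spc1 values of the mating genes was not tested.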

How the results depend on the processing

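For Spc1K49R against empty vector, 48 of 112 values from alternatives equal the full difference by construction of this balanced design, and 8 are the authors' values that chose the members. In the other 56 values the differences were positive. Those with arrays left out had to be, because both Spc1K49R arrays lay above both empty-vector arrays in all 8 probe sets. Centring shifts all probe sets alike, and took the median over the 8 only from 0.490 to 0.486. Only the 5' minus 3' covariate was thus free to turn a sign. The median over the 8 probe sets was 0.32 to 0.52 with an array left out, lowest without empty vector replicate 1, and 0.36 without Spc1K49R replicate 1. For Spc1 against empty vector it was 0.14 to 0.33, lowest without Spc1 replicate 2, and 0.42 with the mfm1 probe sets averaged, and 4 probe sets (both of mfm1, rgs1 and spk1) changed sign in 10 of 56 values free to differ. For Spc1K49R against Spc1 it was 0.11 to 0.33, highest without Spc1 replicate 2, and mfm3, mam2 and mei2 changed sign in 10 of 56 values free to differ. These 3 lay at 0.17, 0.21 and -0.05 without Spc1 replicate 1, and at 0.22, 0.29 and -0.17 with the 5' minus 3' covariate. Probe sets past the threshold with limma stayed at 0 in all alternatives except an unadjusted p under 0.05 (8, 108 and 91) and the fits without Spc1 replicate 2, which left Spc1 replicate 1 alone and gave ranges of 0 to 2968 for Spc1 against empty vector and 0 to 3234 for Spc1K49R against Spc1. Members called without Spc1 replicate 2 were mam2, mfm3 and mam3 in the first of these comparisons, 3 of 8 where 33.1% of all probe sets passed, and rgs1, mfm3 and mam3 in the second, 3 of 8 where 36.1% passed. A replicate block cannot change a difference of group means here, so the medians are 0.49, 0.25 and 0.17 by construction, and 0 probe sets passed with it in each comparison. Deviations of same-numbered arrays correlated at 0.10 between Spc1K49R and Spc1, at 0.07 between Spc1K49R and empty vector, and at 0.47 between Spc1 and empty vector. The main fits did not pair the samples by number, and what lies behind the 0.47 was not tested.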
